A study of Mus musculus with 6 samples.

Results

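The 8 genes described here are the adrenergic receptors Adrb1, Adra1b and Adra2a, the arrestins Arrb1 and Arrb2, and the cAMP phosphodiesterases Pde4b, Pde4c and Pde4d. They were chosen by symbol out of 34099 genes in the count matrices, and each symbol matched a single gene. Their UMIs (unique molecular identifiers, which count each captured RNA molecule once) and the cells holding at least 1 UMI were taken per mouse and cell type, and stress mice were compared with control mice within each cell type. Of the 8 genes, Pde4c was higher in the stress mice in tumor cells and endothelial cells, Adra1b was higher in tumor cells, and Arrb1 and Arrb2 were lower in tumor cells. In tumor cells 21.4% of all tested genes passed the same test. The result for Adra1b was lost when any single mouse was left out. Those for Arrb2 and for Pde4c in endothelial cells were lost when certain single mice were left out. With every cell thinned to 1000 UMIs, Arrb1 and Arrb2 no longer passed the test in tumor cells.

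The tumors had grown from H22, a murine HCC cell line, injected into the left lateral liver lobe of wild type male C57BL/6J mice. The mice were 8 weeks old when obtained, and their age at injection is not given in the sources used here. The 3 mice of the stress group (labelled chronic stress) underwent chronic unpredictable mild stress, with a pair of changing stressors each day. According to the paper, their tumor cells were injected after the stress protocol and its behavioral evaluation. The 3 mice of the control group received the tumor cells but no stressors. All 6 tumors therefore came from the same cell line, passaged as ascites in mice, and each mouse gave 1 library of the 10x Genomics platform from dissociated tumor tissue. The deposited annotation assigns 58794 of 61374 barcodes to 28 clusters and 10 cell types: tumor cells, endothelial cells (ECs), inflammatory myeloid cells, monocytes, natural killer and T cells (NK/T cells), dendritic cells (DCs), B cells, monocytic myeloid-derived suppressor cells (M-MDSCs), neutrophils and hepatic stellate cells (HSCs). The matrix headers name Cell Ranger 9.0.0, the counting program, for all 3 control libraries and 7.1.0 for all 3 stress libraries. The effects of the program version and of the stressors therefore cannot be told apart in anything reported here.

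Noradrenaline and adrenaline, released by sympathetic nerves and the adrenal medulla during stress, act on adrenergic receptors. Beta receptors such as Adrb1 couple to the stimulatory G protein and raise cAMP through adenylyl cyclase, alpha-2 receptors such as Adra2a couple to inhibitory G proteins and lower cAMP, and alpha-1 receptors such as Adra1b couple to Gq and raise calcium. After receptor kinases phosphorylate an active receptor, beta-arrestins (Arrb1 and Arrb2) bind it, uncouple it from its G protein and lead it to endocytosis. They also bring PDE4 enzymes, which hydrolyse cAMP, to the receptor, so that production and removal of cAMP are joined at the same place. In liver, Adra1b is best known from hepatocytes, where it drives glycogen breakdown.

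The annotated cells carried 149558935 to 187728350 UMIs per mouse, with a median of 7166 to 20478 UMIs per cell. Mitochondrial UMIs made up 3.62% to 4.46% of the control libraries and 4.64% to 5.28% of the stress libraries, and in tumor cells 3.71% to 4.70% and 5.41% to 5.72%. The ranges also stood apart in ECs, monocytes, M-MDSCs and the untested HSCs, with the stress mice higher, and the part of this difference in the results below was not tested. Between 13 and 40 cell barcodes were shared by any pair of libraries, and 386 barcodes occurred in more than 1 library. The labelled cell types mostly held their own markers at the highest level, with 7 of 7 endothelial, 5 of 5 B cell, 5 of 5 NK/T, 4 of 5 DC, 4 of 6 monocyte, 3 of 5 inflammatory myeloid and 3 of 5 tumor cell markers highest in their own class. By contrast, none of the 3 M-MDSC markers (Arg1, Nos2 and Spp1) was highest in M-MDSCs, so that this label is not borne out by its markers and the class is named here by its annotation only. Cell types with at least 10 cells in each mouse were tested with edgeR's quasi-likelihood test on summed UMIs, with p-values adjusted over all genes tested in that cell type. Neutrophils, with as few as 4 cells in a mouse, and HSCs, with as few as 6, were not tested. Levels are given as CPM, the UMIs of a gene scaled to 1000000 UMIs of that cell type in that mouse, and they are compared within a gene only. Of the 64 pairs of a gene and a tested cell type, 39 passed the filter on low counts, 15 reached an unadjusted p below 0.05 and 7 passed an adjusted p of 0.05. Of the 39, 2 passed the filter through the stress mice alone, Pde4c in DCs and in M-MDSCs, where no control mouse reached the filter's level. These had to differ in order to be tested, so their p-values are given as a description and support nothing.

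Adrb1, the beta-1 receptor, was detected mainly in NK/T cells and monocytes. In NK/T cells its level was 4.09, 3.89 and 5.79 CPM in the control mice 1, 2 and 3 and 4.10, 5.85 and 6.30 CPM in the stress mice 1, 2 and 3, and the groups overlapped (log2 fold change, stress minus control, 0.42, SE 0.42, adjusted p = 0.738). In monocytes it was 2.80, 2.09 and 4.20 CPM in the control mice and 5.22, 1.15 and 1.67 CPM in the stress mice, again with overlap (log2 fold change -0.29, SE 0.61, adjusted p = 0.871). Stress mouse 1 held the highest monocyte value and stress mouse 2 the lowest. The monocyte UMIs were unevenly spread over the clusters, with 62.4% of them in cluster 11. In DCs, the next of the tested classes, it was between 0 and 1.77 CPM. Among 29638 tumor cells only 8 held an Adrb1 UMI (0.0270%), although these cells were sequenced to a median of 31192 UMIs, against 85 of 2490 NK/T cells (3.41%) at a median of 4427 UMIs. None of 457 B cells (a count of 0 allows up to 0.656%) and none of 350 M-MDSCs (up to 0.857%) held a UMI. Such limits and the intervals below cover counting error only. The 3 genes whose log2(CPM + 1) over the 48 combinations of mouse and tested cell type was most like that of Adrb1, among genes that reached a mean of 10 CPM in at least 1 tested cell type, were Hopx (Pearson r = 0.862), Ms4a6b (0.851) and Dok2 (0.851). These 48 points come from 6 libraries and share their depth, so r is a description.

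Adra1b, the alpha-1B receptor, was rare everywhere and passed the filter on low counts in tumor cells alone. There it was 0.135, 0.0988 and 0.0800 CPM in the control mice, from 23, 15 and 13 UMIs, and 0.202, 0.292 and 0.299 CPM in the stress mice, from 28, 35 and 31 UMIs. Every stress mouse lay above every control mouse, and the gene rose in the stress mice (log2 fold change 1.18, SE 0.31, adjusted p = 0.0355). The call did not hold with DESeq2 (adjusted p = 0.0571) or without any 1 of the 6 mice (adjusted p 0.0540 to 0.135). Cells with a UMI made up 0.254% ± 0.00937 (SD, n = 3 mice) of tumor cells in the control mice and 0.662% ± 0.0768 in the stress mice, which 3 mice against 3 cannot bring below an exact permutation p of 0.10. At most 6 Adra1b UMIs were found in a tumor cell. No inflammatory myeloid cell of 6307 held a UMI, which allows up to 0.0476%. Hepatocyte transcripts, 7 genes with Alb and Apoa1 among them, summed to 0.683 to 1.97 CPM in tumor cells of control mice and 1.99 to 2.51 CPM in those of stress mice, and their part in the Adra1b result was not tested. None of the 6 tested hepatocyte transcripts passed the test in tumor cells.

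Adra2a, the alpha-2A receptor, was also close to the detection limit. In tumor cells it was 0.0410, 0.0856 and 0.0246 CPM in the control mice and 0.137, 0.0667 and 0.154 CPM in the stress mice, and stress mouse 2 lay within the control range (log2 fold change 1.11, SE 0.53, adjusted p = 0.171). Its highest mean among the tested classes was in DCs, 0.485 CPM ± 0.490 (SD, n = 6 mice), where 7 of 9 UMIs came from cluster 20. None of 350 M-MDSCs held an Adra2a UMI (up to 0.857%). Between neighbours in the order of mean levels, neither Adra1b nor Adra2a showed a difference larger than the spread over mice. For these receptors the likest genes reached only r = 0.490 (Kdm6a, for Adra1b) and r = 0.588 (Tmem39a, for Adra2a), which at counts this low is no finding.

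Arrb1, beta-arrestin 1, was highest in ECs and fell in tumor cells of stress mice. In tumor cells it was 18.2, 11.5 and 16 CPM in the control mice and 7.15, 6.70 and 5.81 CPM in the stress mice. The lowest control value was higher than every stress value, and the fitted log2 fold change was -1.36 (SE 0.20, adjusted p = 0.00639). The share of tumor cells with an Arrb1 UMI was 29.9% ± 6.20 (SD, n = 3) in the control mice and 16.7% ± 1.88 (SD, n = 3) in the stress mice, and with every cell thinned to 1000 UMIs it was 1.56% ± 0.483 and 0.856% ± 0.114. Neither share can pass the exact permutation test at 3 mice against 3 (p = 0.10, the smallest it allows). With thinned cells the log2 fold change of the summed UMIs was -0.92 and the gene was not called (adjusted p = 0.106). All 10 tumor cell clusters showed lower values in every stress mouse than in every control mouse, with cluster means of 4.53 to 28.0 CPM in the control mice and 2.18 to 13.8 CPM in the stress mice. The clusters come from the same mice and are not separate replicates. For this gene and those below, the share of all genes without overlap was not computed by cluster.

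In ECs Arrb1 was 96.9, 121 and 110 CPM in the control mice and 119, 126 and 143 CPM in the stress mice, and the groups overlapped (log2 fold change 0.22, SE 0.12, adjusted p = 0.428). Lower values in the stress mice that did not pass the adjusted test were measured in M-MDSCs (log2 fold change -1.44, SE 0.43, unadjusted p = 0.00578, adjusted p = 0.261), NK/T cells (-0.98, SE 0.34, 0.0123 and 0.243) and monocytes (-0.44, SE 0.18, 0.0355 and 0.380). In M-MDSCs the control mice had 18.0, 16.3 and 17.9 CPM and the stress mice 13.7, 4.27 and 4.37 CPM, from 84 and 22 UMIs. This difference was called in 1 of 9 alternatives with an adjusted p, that with no filter on low counts (adjusted p = 0.0484). In NK/T cells the values were 22.5, 12.1 and 23.2 CPM in the control mice and 7.69, 8.27 and 9.21 CPM in the stress mice. In monocytes they were 34.8, 37.8 and 42.0 CPM against 26.7, 24.6 and 30.0 CPM, and without cluster 13 the log2 fold change was -0.23. Groups did not overlap in any of these 3 classes, nor in inflammatory myeloid cells and DCs, with stress mice lower each time.

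Arrb2, beta-arrestin 2, moved less. In tumor cells it was 10.3, 11.4 and 9.46 CPM in the control mice and 6.99, 9.11 and 8.20 CPM in the stress mice, a fall that passed the test (log2 fold change -0.51, SE 0.11, adjusted p = 0.0217). Each stress mouse had a lower value than each control mouse. The call was lost without control mouse 1 or 3 or stress mouse 1 or 3 (adjusted p 0.0563 to 0.0673) and with cells thinned to 1000 UMIs (0.257). Of the 10 tumor cell clusters, 5 showed the stress mice below the control mice and 5 showed overlap. The share of tumor cells with an Arrb2 UMI was 23.8% ± 3.19 (SD, n = 3) in the control mice and 21.2% ± 2.35 (SD, n = 3) in the stress mice, with overlapping groups.

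In NK/T cells Arrb2 was 44.9, 47.4 and 56.7 CPM in the control mice and 29.7, 32.4 and 36.3 CPM in the stress mice (log2 fold change -0.52, SE 0.19, unadjusted p = 0.0155, adjusted p = 0.261). M-MDSCs had 12.9, 15.8 and 17.9 CPM against 7.59, 9.25 and 9.36 CPM (-0.87, SE 0.32, 0.0190 and 0.408). The groups did not overlap in either class, and neither passed the adjusted test. Across tested cell types, the Arrb1 order ran from ECs (119 CPM ± 15.5, SD, n = 6 mice) to inflammatory myeloid cells (34.1 ± 15.3) and monocytes (32.6 ± 6.74), and ended with tumor cells (10.9 ± 5.25) and B cells (7.14 ± 2.99). The gap from ECs to inflammatory myeloid cells held in 6 of 6 mice with no overlap of the ranges, whereas inflammatory myeloid cells and monocytes did not differ beyond their spread. For Arrb2 the order began with ECs (77.1 ± 12.2) and monocytes (54.8 ± 9.26) and ended with B cells (10.2 ± 5.18) and tumor cells (9.25 ± 1.55), and only DCs (41.1 ± 9.77) and M-MDSCs (12.1 ± 4.11) were neighbours with ranges that did not overlap. Genes most like Arrb1 over the 48 combinations were Zfp503 (r = 0.898), Rab5c (0.888) and St3gal4 (0.880), and those most like Arrb2 were Hpcal1 (0.923), Lpar6 (0.881) and Gnai2 (0.876), an inhibitory G protein subunit.

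**Figure D1:**
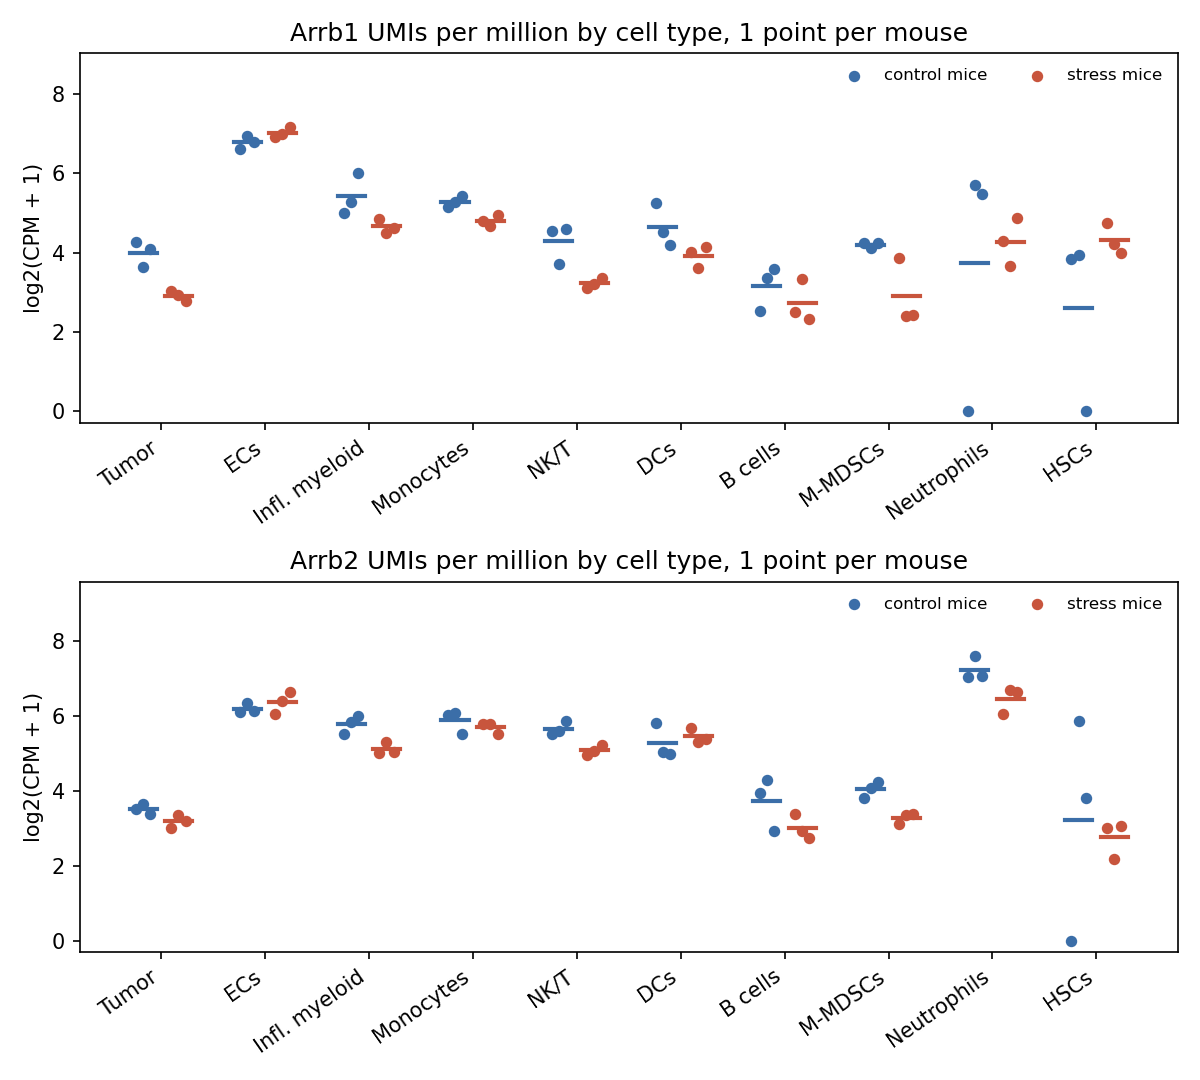
Levels of Arrb1 (top) and Arrb2 (bottom) as log2(CPM + 1) in each cell type, with 1 point per mouse and a horizontal line at each group mean (3 control mice, 3 stress mice). In tumor cells all stress points lie below all control points for both genes, and in ECs the groups overlap.

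Pde4c, which encodes a PDE4 enzyme, was higher in the stress mice in tumor cells and ECs, and in DCs and M-MDSCs its UMIs came almost entirely from the stress mice. It lies at chr8:70723720-70751186 on the plus strand (GRCm38), and no other annotated gene overlaps it. The 250 bases before its RefSeq start (GRCm38.p6, chr8:70723814-70724063, plus strand) are shown beside the upstream window of Pde4b (chr4:102421305-102421554, plus strand) that holds TGACG or its reverse complement CGTCA, the core bound by the cAMP-responsive factor CREB, because both genes encode enzymes that hydrolyse cAMP. It is 1 of 4 upstream windows of Pde4b, and the other 3 do not hold the core. Both windows shown lie inside the annotated gene (Pde4b, chr4:102087543-102607259, GRCm38). They are upstream of a RefSeq start only, and the bases before the annotated gene starts were not searched. Capitals mark that core.
Pde4c: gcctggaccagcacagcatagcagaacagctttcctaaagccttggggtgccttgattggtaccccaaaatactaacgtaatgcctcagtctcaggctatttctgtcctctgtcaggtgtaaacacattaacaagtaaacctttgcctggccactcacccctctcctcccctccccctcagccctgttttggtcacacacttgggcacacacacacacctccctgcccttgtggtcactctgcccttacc
Pde4b: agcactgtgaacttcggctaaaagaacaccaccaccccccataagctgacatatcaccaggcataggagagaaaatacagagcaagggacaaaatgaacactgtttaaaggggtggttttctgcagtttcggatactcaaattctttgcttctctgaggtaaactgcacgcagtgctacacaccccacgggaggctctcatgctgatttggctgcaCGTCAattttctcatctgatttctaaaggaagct
The core was found on either strand in 3 of 10 upstream windows of the 6 genes matched in the RefSeq table (Adrb1, Adra2a and the window of Pde4b above) and in 17.8% of all 32851 windows of the same length. The full palindrome TGACGTCA was found in none of the 10 and in 1.55% of all windows. The Pde4c window holds neither, which says only that these letters are not in these 250 bases.

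In tumor cells Pde4c was 0.873, 2.88 and 0.973 CPM in the control mice, from 149, 437 and 158 UMIs, and 10.2, 9.74 and 8.20 CPM in the stress mice, from 1414, 1168 and 850 UMIs. Every stress mouse exceeded every control mouse by more than the spread within the groups (log2 fold change 2.45, SE 0.43, adjusted p = 0.0106). The log2 fold change was 2.16 without control mouse 1, 3.18 without control mouse 2 and 3.39 with cells thinned to 1000 UMIs. The share of tumor cells with a Pde4c UMI was 1.79% ± 1.06 (SD, n = 3) in the control mice and 8.46% ± 0.813 (SD, n = 3) in the stress mice, and after thinning to 1000 UMIs 0.128% ± 0.0793 and 1.31% ± 0.152. The groups did not overlap in either share. A carrying cell held on average 2.35 Pde4c UMIs in the control mice and 3.49 in the stress mice, and at most 28. The shares reach the smallest p that 3 mice against 3 allow in the exact permutation test (0.10), and the UMIs per carrying cell were not tested.

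The tumor cell UMIs of Pde4c were concentrated in cluster 9, which held 35.6% of them. There the level was 4.90, 9.66 and 5.16 CPM in the control mice and 68.2, 68.2 and 34.2 CPM in the stress mice, and 13.8% of its 2803 cells carried a UMI. Cluster 17, shallow cells with a median of 1369 to 2877 UMIs by mouse, had 1.81, 6.42 and 4.40 CPM in the control mice and 154, 32.7 and 90.3 CPM in the stress mice. Of the 10 tumor clusters, 8 had all stress mice above all control mice, and clusters 5 and 21 showed overlap. Without cluster 9 the log2 fold change was 2.28 (SE 0.52, adjusted p = 0.0260).

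**Figure D2:**
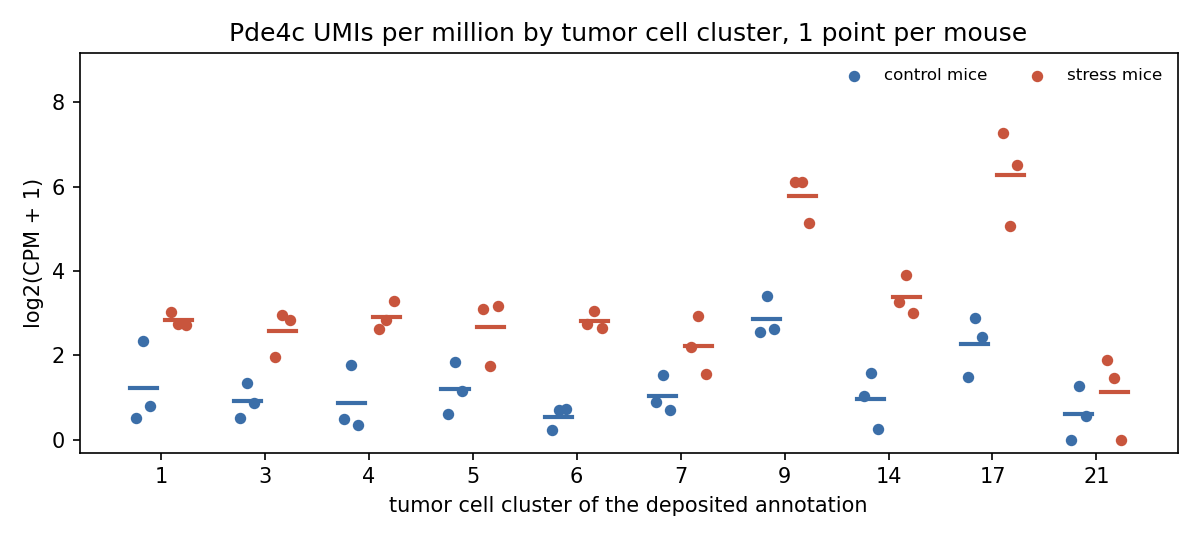
Pde4c in the 10 tumor cell clusters as log2(CPM + 1), with 1 point per mouse and a line at each group mean (3 mice per group). Clusters 9 and 17 hold the highest stress values, and the groups overlap in clusters 5 and 21.

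In ECs Pde4c was 6.91, 5.57 and 6.69 CPM in the control mice and 23.2, 34.0 and 24.8 CPM in the stress mice (log2 fold change 2.07, SE 0.19, adjusted p = 0.0145). The control mice lay close together and far below the lowest stress mouse. The EC call was lost without control mouse 1 (adjusted p = 0.0847), control mouse 3 (0.105) or stress mouse 3 (0.0609), with log2 fold changes of 2.12 to 2.13. Carrying ECs made up 2.57% ± 0.416 (SD, n = 3) of ECs in the control mice and 6.23% ± 0.646 (SD, n = 3) in the stress mice. Of 7 EC clusters, 5 had all stress mice above all control mice. Cluster 2, the largest, held 50.0% of the EC UMIs, with 15.6, 8.50 and 13.6 CPM in the control mice and 33.1, 41.3 and 39.1 CPM in the stress mice. Cluster 15, with a median of 858 to 1456 UMIs, held 10 Pde4c UMIs in 1259 cells and showed overlap.

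In DCs no control mouse held a Pde4c UMI, and stress mice held 10, 73 and 32 UMIs (8.40, 10.9 and 7.79 CPM, adjusted p = 0.00405). The filter's level was 4.74 CPM here, so the gene was tested through the stress mice alone. Against the limit of 3 UMIs that a count of 0 over the control group allows, the level in the stress mice was 15.2-fold higher. Without control mouse 2 it was 6.07-fold higher. Both values take UMIs as independent, which UMIs of the same cell are not, so neither is a lower limit. DESeq2 gave no adjusted p for Pde4c in DCs, and the gene of the 8 that it called there was Pde4d. These UMIs came from 37 of 1050 DCs of stress mice, with 16 of them in a single cell, against 0 of 506 DCs of control mice, which allows up to 0.593%. The DCs are made of 2 clusters, and cluster 19 held 69.6% of the Pde4c UMIs. Cluster 20 alone had 14.1, 10.3 and 0.586 CPM in the stress mice and 0 in the control mice, and Pde4c did not pass the filter on low counts there. Tumor markers (5 genes, 1 of them at 0) summed to 334 to 386 CPM in DCs of control mice and 273 to 397 CPM in those of stress mice, with overlap. These sums cover both DC clusters together and do not give the level in cluster 19 alone. For scale, Krt18, Cldn6 and Afp of this list averaged 423, 137 and 78.2 CPM in tumor cells over all mice. Genes of other marker lists also differed in DCs. Of 5 tested DC markers, 2 rose (Ccr7, log2 fold change 1.97, SE 0.23, adjusted p = 0.00211, and H2-Aa, 0.68, SE 0.15, adjusted p = 0.0317), and the list summed to 1876 to 2460 CPM over control mice and 3429 to 3714 CPM over stress mice. Of 4 tested NK/T markers, Trbc2 was tested through the stress mice alone (0, 1.04 and 2.99 CPM in the control mice, 37.0, 9.67 and 31.2 CPM in the stress mice), and the list had a sum of 0 to 28.4 CPM over control mice and 45.1 to 112 CPM over stress mice, and of 4 tested inflammatory myeloid markers, Il1b rose (1.54, SE 0.27, adjusted p = 0.0122), with a sum of 437 to 1101 CPM over control mice and 1686 to 2132 CPM over stress mice. Their part in the Pde4c result was not tested.

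In M-MDSCs 1 UMI was found in the control mice (0, 0.510 and 0 CPM) against 8, 37 and 11 UMIs in the stress mice (12.1, 26.3 and 6.86 CPM, adjusted p = 0.0107). The filter's level was 6.65 CPM, so here too the gene was tested through the stress mice alone. The ratio of the summed levels was 74.2, with a 95% counting interval of 12.8 to 2982. It was 40.8 (6.49 to 1695) without stress mouse 2, which held 37 of the 56 UMIs, and 35.9 (6.18 to 1442) without control mouse 3. Without control mouse 2, which held the 1 control UMI, the level was 14.7-fold higher against the limit of 3 UMIs. That value and the intervals take UMIs as independent, which UMIs of the same cell are not. The intervals are therefore too narrow, and the value is not a lower limit. A single cell held 22 of the 56 UMIs of the stress mice, and 12 of 144 cells carried any. The call was lost without control mouse 3 (adjusted p = 0.127) or stress mouse 2 (0.0781), and with DESeq2 no adjusted p was given. Tumor markers summed to 402 to 554 CPM in M-MDSCs of control mice and 540 to 731 CPM in those of stress mice. These ranges overlapped. For scale, Krt18, Cldn6 and Afp of this list averaged 423, 137 and 78.2 CPM in tumor cells over all mice. The part of tumor RNA in the M-MDSC result was not tested.

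In monocytes Pde4c was 0, 6.16 and 1.98 CPM in the control mice and 17.9, 10.4 and 3.88 CPM in the stress mice, with control mouse 2 above stress mouse 3 (log2 fold change 1.69, SE 0.79, adjusted p = 0.441). Cluster 11 held 67.8% of the monocyte UMIs. The gene did not pass the filter in inflammatory myeloid cells, where 9 of 6307 cells carried a UMI (0.143%, at a median of 1518 UMIs per cell), in NK/T cells, where 42 of 2490 did (1.69%), or in B cells, where 4 of 457 did. No class here is known to lack Pde4c, so the inflammatory myeloid share is given as the lowest among the tested classes. By mean level the order of the tested classes began with ECs (16.9 CPM ± 12.1, SD, n = 6 mice), M-MDSCs (7.64 ± 10.4), monocytes (6.71 ± 6.54) and tumor cells (5.48 ± 4.39), and all neighbours in it had overlapping ranges. This order pools both groups: over control mice alone M-MDSCs, with 1 UMI, had a lower mean than monocytes (2.71), B cells (1.85), tumor cells (1.57) and NK/T cells (1.42).

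**Figure D3:**
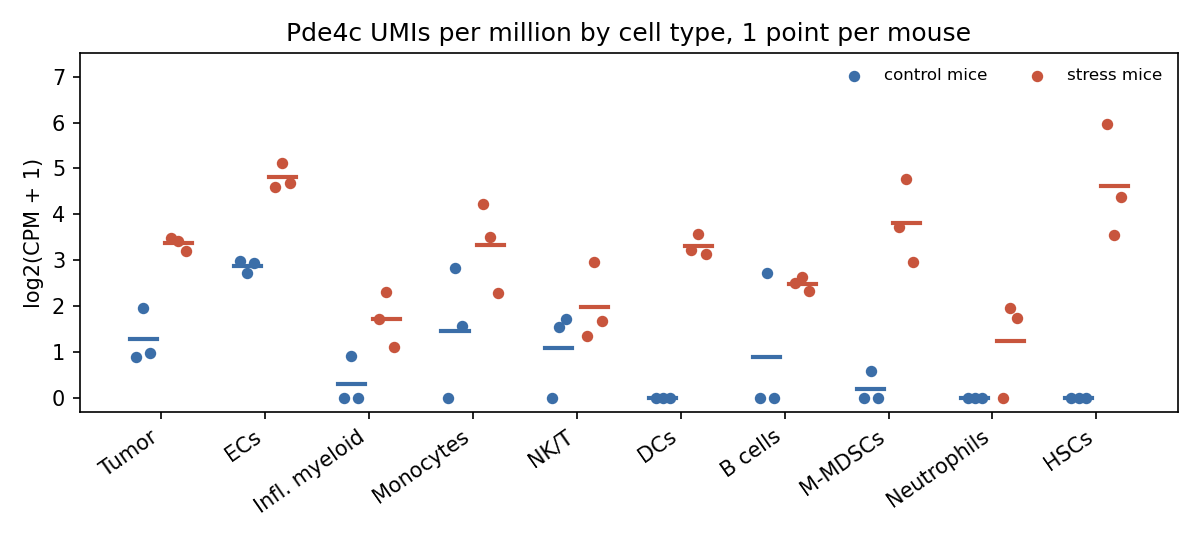
Pde4c as log2(CPM + 1) in each cell type, with 1 point per mouse and a line at each group mean (3 control mice, 3 stress mice). Stress points lie above all control points in tumor cells, ECs, inflammatory myeloid cells, DCs, M-MDSCs and HSCs, and points at 0 are mice without a Pde4c UMI in that cell type.

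Over the 48 combinations of mouse and tested cell type, the genes most like Pde4c were Camk1d (r = 0.734), Acyp2 (0.699) and mt-Atp8 (0.697). Camk1d is among 5 genes (Camk1d, Cdk8, Cmss1, Gphn and Lars2) listed, with these data already seen, because they were higher in the stress libraries of every class. All 5 passed the test as higher in 7 of 8 tested classes, and in inflammatory myeloid cells none passed although all 5 were higher in every stress mouse. Their summed level was 1676 to 1727 CPM in ECs of control mice and 10711 to 13771 CPM in ECs of stress mice, and 497 to 618 CPM against 1775 to 3192 CPM in tumor cells. In DCs it was 764 to 947 CPM against 2763 to 3970 CPM, and in M-MDSCs 469 to 751 CPM against 2226 to 3532 CPM. Pde4c thus moved in the same direction as genes that differed between the libraries in every cell type. Whether counting version, stress or both lie behind that shared difference cannot be told apart, and their part in the Pde4c result was not tested. Endothelial markers (7 genes) summed to 21.5 to 27.0 CPM in tumor cells of control mice and 28.7 to 40.3 CPM in those of stress mice, against 5296 to 7473 CPM in ECs over all mice. Of the 7, Pecam1 was called higher (2.46 to 3.48 CPM in control and 7.60 to 10.4 CPM in stress mice, adjusted p = 0.00442) and Eng lower (log2 fold change -0.46, SE 0.13, adjusted p = 0.0430). Of 4 neutrophil markers in tumor cells, Ltf was called higher (log2 fold change 1.71, SE 0.51, adjusted p = 0.0485), and the list summed to 1.21 to 3.33 CPM in control mice and 1.32 to 6.62 CPM in stress mice, with overlap. Of 4 tested hemoglobin genes none was called in tumor cells, with a median log2 fold change of -3.82. The part of any of these lists in the tumor cell results was not tested.

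Pde4b was highest in myeloid cells and kept overlapping groups in most classes. Inflammatory myeloid cells had 351, 1554 and 718 CPM in the control mice and 780, 1510 and 1371 CPM in the stress mice, a spread within the control group that covered all stress values (log2 fold change 0.59, SE 0.66, adjusted p = 0.994). Monocytes had 546, 932 and 725 CPM in the control mice and 515, 715 and 756 CPM in the stress mice (-0.09, SE 0.25, adjusted p = 0.900). In monocytes 84.8% of 6260 cells carried a Pde4b UMI, and in tumor cells 16.1% did despite their greater depth. Tumor cells had 6.90, 11.6 and 6.33 CPM against 5.16, 10.3 and 8.56 CPM (-0.20, SE 0.28, adjusted p = 0.639). In B cells, which numbered as few as 20 in a mouse, the values were 327, 428 and 279 CPM in the control mice and 162, 218 and 178 CPM in the stress mice, without overlap (-0.80, SE 0.21, unadjusted p = 0.00252, adjusted p = 0.151).

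The order of mean levels of Pde4b ran from inflammatory myeloid cells (1047 CPM ± 498, SD, n = 6 mice) and monocytes (698 ± 152) through DCs (412 ± 52.9), B cells (266 ± 101), NK/T cells (225 ± 46.8) and ECs (211 ± 36.0) to M-MDSCs (83.3 ± 27.5) and tumor cells (8.14 ± 2.46). Inflammatory myeloid cells and monocytes did not differ beyond their spread, nor did B cells, NK/T cells and ECs. Monocytes exceeded DCs, ECs exceeded M-MDSCs and M-MDSCs exceeded tumor cells in 6 of 6 mice with ranges that did not overlap. Within DCs, cluster 20 held 73.6% of the Pde4b UMIs. The likest genes were Adgre5 (r = 0.956), Nrros (0.944) and Btg2 (0.940).

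Pde4d was highest in ECs, with 355, 420 and 415 CPM in the control mice and 352, 460 and 495 CPM in the stress mice (log2 fold change 0.11, SE 0.15, adjusted p = 0.759). Tumor cells had 97.5, 84.7 and 89.5 CPM in the control mice and 90.3, 83.8 and 99.4 CPM in the stress mice, and 66.3% of tumor cells carried a UMI (-0.13, SE 0.11, adjusted p = 0.407). The CPM means, 90.6 in the control and 91.2 in the stress mice, run the other way from the fitted value, which uses TMM-scaled library sizes, and neither is a called change. In both classes the stress values lay on either side of the control mean. In DCs the values were 119, 200 and 132 CPM in the control mice and 178, 233 and 298 CPM in the stress mice, with control mouse 2 above stress mouse 1 (0.75, SE 0.21, unadjusted p = 0.00425, adjusted p = 0.0879). That difference was called in 4 of 12 alternatives. These were DESeq2 (adjusted p = 0.0318), no filter on low counts (0.000696), a block for the replicate number (0.0155) and control mouse 2 left out (0.0254). It was not called in the others (adjusted p 0.0789 to 0.426), among them every other mouse left out, thinned cells and cluster 20 alone. In B cells the values were 47.5, 55.6 and 110 CPM in the control mice and 25.8, 37.9 and 30.5 CPM in the stress mice, from 90 and 78 UMIs, and a single B cell held up to 41 UMIs (-1.14, SE 0.38, unadjusted p = 0.0124, adjusted p = 0.295). Without control mouse 3 the log2 fold change in B cells was -0.50 (adjusted p = 0.651).

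From ECs (416 CPM ± 56.5, SD, n = 6 mice) the order of Pde4d went to DCs (193 ± 66.5), NK/T cells (190 ± 27.2), monocytes (114 ± 11.1), inflammatory myeloid cells (107 ± 56.2), M-MDSCs (93.9 ± 9.99), tumor cells (90.9 ± 6.45) and B cells (51.2 ± 30.7). ECs exceeded DCs, and NK/T cells exceeded monocytes, in 6 of 6 mice without overlap, and the other neighbours overlapped. Pde4d spans 1504 kb at chr13:108449948-109953461 (plus strand, GRCm38), the longest of the 8 genes, and the pseudogene Rps3a3 lies within it on the same strand but has no row in the count files. Genes most like it were Ece1 (r = 0.818), Ssh1 (0.815) and C1qtnf6 (0.812). For no gene did a difference between neighbouring cell types pass the exact sign-flip test over 6 mice after adjustment over 56 pairs, where the smallest possible p is 0.03125 and the smallest adjusted p was 0.159.

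**Figure D4:**
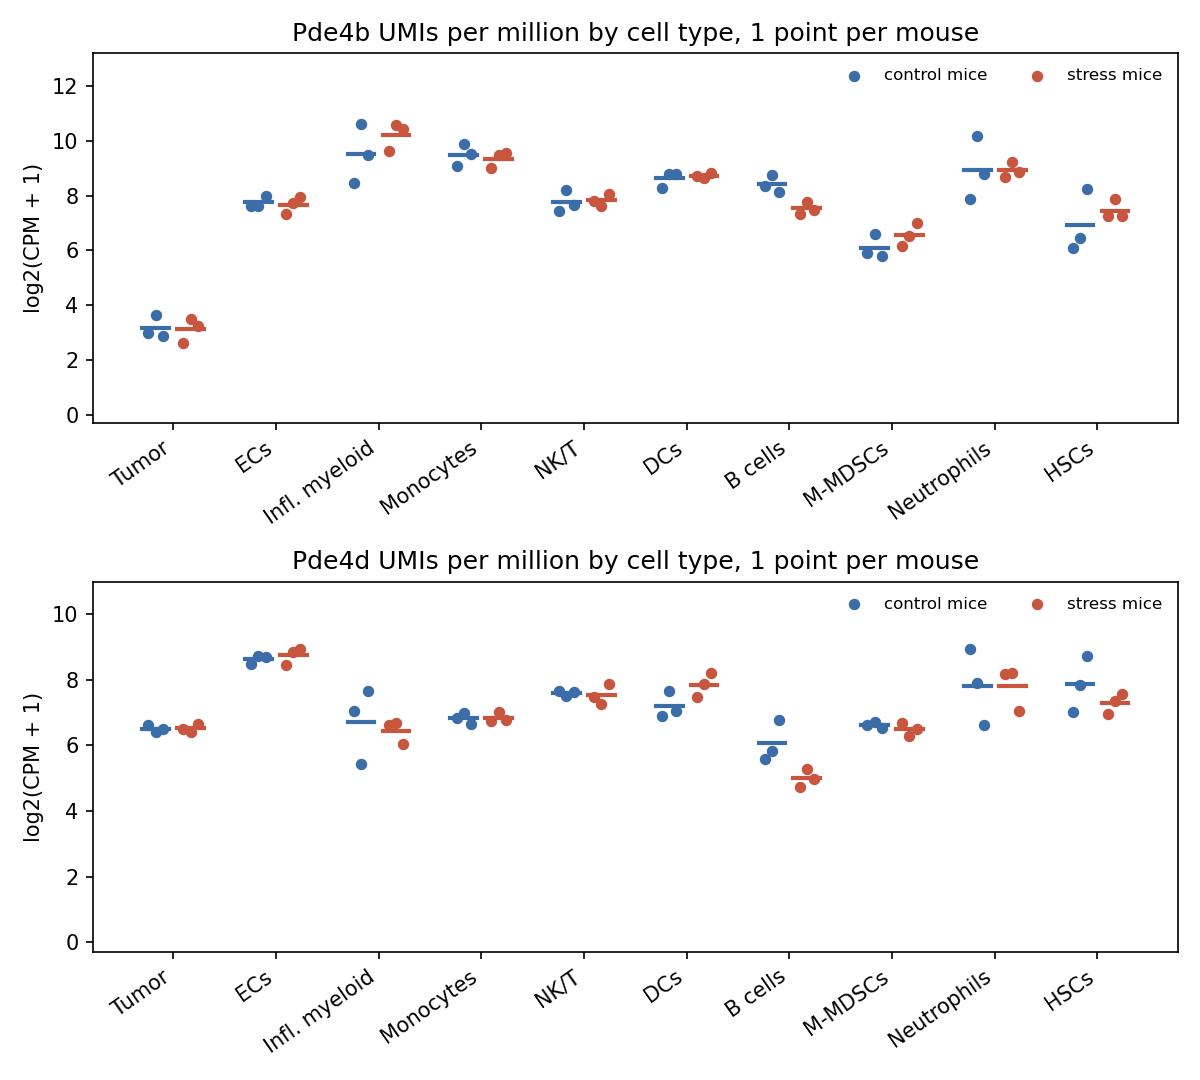
Pde4b (top) and Pde4d (bottom) as log2(CPM + 1) in each cell type, with 1 point per mouse and a line at each group mean (3 mice per group). Pde4b is highest in inflammatory myeloid cells and monocytes and Pde4d in ECs, and in tumor cells and ECs the control and stress points of both genes overlap.

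Counted over cell types, the 8 genes were read against the share of all genes called. In tumor cells 4 of the 7 tested passed the test, with 2 higher and 2 lower, where 21.4% of 18856 tested genes were called. The same 4 were those whose groups did not overlap, as was so for 38.3% of all tested genes. By direction, 28.2% of all tested genes were higher in every stress mouse and 10.1% were lower. In ECs 1 of 5 was called (Pde4c), against 0.213% of all tested genes, and 1 did not overlap, against 22.8%. In DCs 1 of 5 was called (Pde4c), against 2.64%, and 2 did not overlap (Arrb1 and Pde4c), against 25.4%. Pde4c was tested there through the stress mice alone, so nothing is read from its call or its lack of overlap. In M-MDSCs 1 of 5 was called, again Pde4c, against 0.561%, and 3 did not overlap (Arrb1, Arrb2 and Pde4c), against 15%. The same limit holds there for Pde4c in both counts.

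No gene of the 8 was called in the remaining classes by edgeR or by DESeq2, although Arrb1 in monocytes, Arrb1 and Arrb2 in NK/T cells, and Pde4b and Pde4d in B cells reached an unadjusted p below 0.05. In monocytes 0 of 6 were called, against 0.122% of all tested genes, and 1 (Arrb1) did not overlap, against 18.0%. In NK/T cells 0 of 5 were called, against 0.857%, and 2 (Arrb1 and Arrb2) did not overlap, against 20.1%. In inflammatory myeloid cells 0 of 4 were called and none reached an unadjusted p below 0.05, in a class where 0.0% of all 9219 tested genes were called, 365 reached an unadjusted p below 0.05 and DESeq2 called 5, and 2 (Arrb1 and Arrb2) did not overlap, against 7.41%. In B cells 0 of 2 were called, against 0.483%, and both (Pde4b and Pde4d) did not overlap, against 14.0%. The median log2 fold change over the 7 tested was -0.13 in tumor cells, where that of all tested genes was -0.01.

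**Figure D5:**
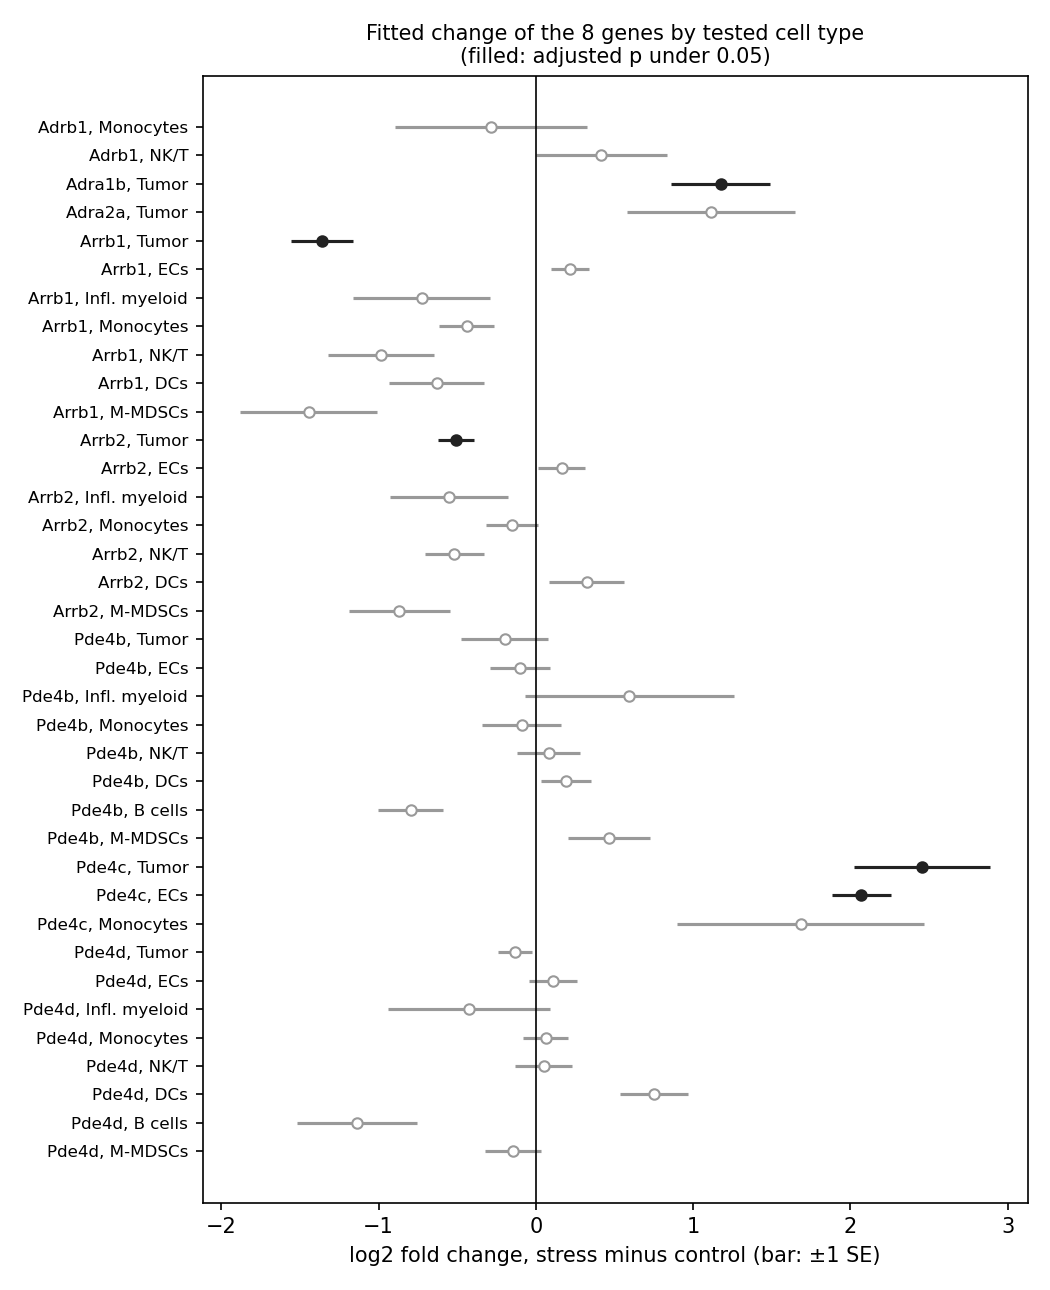
Fitted log2 fold change, stress minus control, with bars of ±1 SE from edgeR, for the 37 tested pairs of gene and cell type with more than 3 control UMIs. Filled points passed an adjusted p of 0.05: Adra1b, Arrb1, Arrb2 and Pde4c in tumor cells and Pde4c in ECs. Pde4c in DCs and M-MDSCs is left out because their control mice held 3 or fewer UMIs.

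Whether the stress effect differed among cell types was tested in a single fit over the 8 classes, with terms for mouse and class. With edgeR it called 34 of 14596 genes (0.233%) and none of the 6 genes of the 8 tested in it. The smallest p was that of Arrb1 (unadjusted 0.00265, adjusted p = 0.233), followed by Pde4c (0.00659 and 0.304), Arrb2 (0.0107 and 0.365) and Pde4d (0.0302 and 0.499). The stress effects on Arrb1 in tumor cells and ECs were therefore not shown to differ. Without control mouse 2 the same fit called Pde4b, Pde4d and Arrb1 (adjusted p = 0.0440, 0.0142 and 0.0450) among 242 genes.

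Other genes of the pathway were taken from lists of 63 genes. In tumor cells 12 of the 53 tested were called (22.6%), 4 higher and 8 lower, close to the 21.4% of all tested genes. Among the 4 is the receptor Adrb3, which was tested through the stress mice alone and from which nothing is read (0.0293, 0.0263 and 0.0431 CPM in the control mice, 0.145, 0.108 and 0.0964 CPM in the stress mice, with the filter's level at 0.0689 CPM). Among receptor kinases, which mark receptors for arrestin, Grk2 fell by 0.69 on the log2 scale (SE 0.18, adjusted p = 0.0337) and Grk4 rose by 0.68 (SE 0.11, adjusted p = 0.00864). Pde4a, the remaining PDE4 gene, fell from 26.1, 20.7 and 23.0 CPM in the control mice to 15.2, 16.2 and 15.9 CPM in the stress mice (log2 fold change -0.71, SE 0.11, adjusted p = 0.00781), so that of the 4 PDE4 genes 1 rose, 1 fell and 2 did not pass the test in tumor cells. Pde8a, another cAMP phosphodiesterase, rose (0.91, SE 0.22, adjusted p = 0.0276).

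Lower in tumor cells of stress mice were also the G protein subunits Gnai2 (log2 fold change -0.57, SE 0.11, adjusted p = 0.0149) and Gna11 (-0.48, SE 0.11, adjusted p = 0.0204), the adenylyl cyclase Adcy9 (-0.64, SE 0.13, adjusted p = 0.0168) and the protein kinase A subunits Prkaca (-0.42, SE 0.08, adjusted p = 0.0154) and Prkar2b (-0.77, SE 0.15, adjusted p = 0.0129). Adcy3 was higher (0.93, SE 0.24, adjusted p = 0.0337), at 0.542 to 0.711 CPM in the control mice and 1.05 to 1.73 CPM in the stress mice. In ECs, inflammatory myeloid cells, monocytes and B cells none of the 47, 40, 45 and 30 tested list genes was called by edgeR, and 9, 1, 9 and 4 of them reached an unadjusted p below 0.05, as did 15.6%, 3.96%, 12% and 11.1% of all genes tested in these classes.

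Among 12 transcripts induced by cAMP signalling, each of which other pathways induce as well, Fos was the one called most often. In tumor cells 1 of the 12 was called, against 21.4% of all tested genes. Over the 63 genes of all lists, 1 of 43 tested was called in NK/T cells (2.33%, against 0.857% of all tested genes), 2 of 41 in DCs (4.88%, against 2.64%) and 1 of 39 in M-MDSCs (2.56%, against 0.561%), and these were Fos in each class and Nr4a3 in DCs. Fos was called lower in 4 of 8 tested classes, with log2 fold changes of -1.16 (SE 0.24, adjusted p = 0.0170) in tumor cells, -1.65 (SE 0.25, adjusted p = 0.00820) in NK/T cells, -1.33 (SE 0.30, adjusted p = 0.0399) in DCs and -1.31 (SE 0.20, adjusted p = 0.00908) in M-MDSCs, and its estimates lay below 0 in all 8. In NK/T cells it was 748, 350 and 461 CPM in the control mice and 181, 135 and 149 CPM in the stress mice. Nr4a3, another transcript of that list, rose in DCs from 274, 288 and 264 CPM to 456, 544 and 581 CPM (log2 fold change 1.05, SE 0.14, adjusted p = 0.00401). The other 10 transcripts passed the test in no class.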

How the data were processed

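Dissociated liver tumors of 3 control and 3 stress mice were profiled by droplet single-cell RNA-seq, 1 library per mouse. The deposited matrices hold unnormalized UMI counts for every gene and barcode (Cell Ranger, mm10, versions 9.0.0 for control and 7.1.0 for stress libraries) and a separate table names the cluster and cell type of the cells left by the authors' filters. Doublets were removed by the authors before deposit, and no doublet caller was run here. The gene annotation used for counting is not given in the sources used here. UMI totals in the annotation equalled those of the matrices for 68.3% to 76.7% of cells per library.

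Counts were summed per mouse and annotated cell type, for types with at least 10 cells in every mouse, and stress was compared with control in edgeR 4.0.16 (filterByExpr, TMM, quasi-likelihood test, Benjamini-Hochberg adjustment over all genes tested in that type, threshold 0.05), in R 4.3.3. The difference of the stress effect among cell types was an interaction test in edgeR. The script was tested on simulated endothelial counts with a dispersion of 0.05. It recovered 98 of 99 simulated 4-fold changes and 43 of 97 simulated 2-fold changes, with 6 false calls. A gene that was not called is therefore not shown to be unchanged. Levels are CPM, with log2(CPM + 1) where stated. Shares of cells with a UMI were also computed after thinning to 1000 UMIs per cell, and compared by exact two-sided permutation tests. Neighbouring cell types were compared by exact two-sided sign-flip tests over mice. Genes and lists were chosen with earlier results of these data known. All 8 genes are named, with full statistics where a p, adjusted or not, was under 0.05, except that no fitted fold change is given for Pde4c in DCs and M-MDSCs, whose control mice held at most 1 UMI, and other pathway genes come from the lists, with values for those called. Alternatives were DESeq2 1.42.0, RLE normalization, no filter on low counts, the replicate number as a block, each mouse left out, thinned cells, and tumor cells, ECs, monocytes and DCs without single clusters.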

Additional observations from a re-analysis of the deposited data

Results flagged for a closer look

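Pde4c in HSCs stood outside the comparisons, since as few as 6 of these cells came from a mouse, and was above the control level. No Pde4c UMI was found in the 37 HSCs of control mice, which allows a share of up to 8.11% of cells. In stress mice 26, 3 and 16 UMIs gave 61.4, 10.7 and 19.7 CPM (mean 30.6 ± 27.1, SD, n = 3), from 19 of 91 cells. Against the limit of 3 UMIs over the control group, the level was 4.42-fold higher. It was 2.59-fold higher without stress mouse 1, which held 26 of the 45 UMIs, and 1.45-fold higher without control mouse 1. These values take UMIs as independent, which UMIs of the same cell are not, so none is a lower limit. Mitochondrial UMIs made up 1.38% to 1.73% of HSC UMIs in control mice and 2.21% to 3.19% in stress mice. Neither the difference in Pde4c nor the part of the mitochondrial share in it was tested.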

How the results depend on the processing

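The 15 fitted fold changes with an unadjusted p under 0.05, chosen by that p in these same data, kept their direction under every alternative run. They include Pde4c in DCs and M-MDSCs, whose values are not given. Both passed the filter through the stress mice alone, so their direction was set beforehand and supports nothing. Over all 39 tested pairs of gene and cell type, 18 of 437 alternative values, in 10 pairs, had the other sign, between -0.38 and 0.30 on the log2 scale, with adjusted p 0.601 to 0.998. These were Pde4b in tumor cells, ECs, monocytes, NK/T cells and DCs, Pde4d in ECs, inflammatory myeloid cells and NK/T cells, Adrb1 in monocytes and Arrb2 in DCs. The number of the 8 genes called moved in 4 cell types. In tumor cells (4 called) it was 2 to 3 with each mouse left out, 3 with DESeq2, and 1 of 5 tested with thinned cells. In ECs (1 called) it was 0 to 1 with each mouse left out. In DCs (1 called) it was 1 with DESeq2, but Pde4d in place of Pde4c, 2 with no filter on low counts, 2 with the replicate block, 1 to 2 with each mouse left out, 0 of 3 tested with thinned cells and 0 of 4 tested in cluster 20 only. In M-MDSCs (1 called) it was 0 with DESeq2, 2 with no filter, 0 to 1 with each mouse left out, and 0 with thinned cells, where none of the 8 passed the filter. The interaction test (0 called) gave 0 to 3 with each mouse left out. The cause of these moves was not tested. Nor was the part in them of the smaller number of genes that passed the filter in thinned cells and in cluster 20. Over alternative values of those 15 fold changes, 137 kept their side of the threshold, 18 lost it, 5 gained it, and 5 had no adjusted p with DESeq2 (Pde4c in DCs and M-MDSCs, Arrb1 in NK/T cells and M-MDSCs, and Arrb2 in M-MDSCs). These counts include Pde4c in DCs and M-MDSCs, from which nothing is read.

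Counts over all genes depended on the tool, the filter, the depth and single mice. With cells thinned to 1000 UMIs they were 417 of 11286 in tumor cells (3.69%), 22 of 3074 in DCs (0.716%), 7 of 868 in M-MDSCs, 12 of 1197 in B cells, 224 of 5432 in NK/T cells (4.12%) and 6 of 5250 in inflammatory myeloid cells, and in DC cluster 20 alone 20 of 6387. With each mouse left out they were 1191 to 5790 in tumor cells, 3 to 46 in ECs, 3 to 64 in monocytes, 38 to 125 in NK/T cells, 65 to 354 in DCs, 6 to 40 in B cells and 25 to 90 in M-MDSCs, so the shares of all genes called move with them. DESeq2 called 368 genes in ECs, 5 in inflammatory myeloid cells, 168 in monocytes, 172 in NK/T cells, 67 in B cells and 82 in M-MDSCs. With no filter the counts were 107 in ECs, 80 in inflammatory myeloid cells, 214 in monocytes, 479 in NK/T cells, 815 in DCs, 306 in B cells and 321 in M-MDSCs. The replicate block gave 131 in ECs, 9 in inflammatory myeloid cells, 205 in monocytes, 229 in NK/T cells, 661 in DCs, 54 in B cells and 124 in M-MDSCs. Deviations of same-numbered mice correlated between -0.13 and 0.67 and exceeded 0.1 for every number in 1 of 8 classes. Whether same-numbered mice share more than a number was not tested.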
